A study of Mus musculus with 8 samples.

Results

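The receptors and ligands of the epidermal growth factor (EGF) family and the feedback inhibitor Errfi1 were followed in the aorta of newborn mice with and without fibulin-4. The set was drawn up with the rise of Errfi1 in the knockout already known, and was filled with the EGF receptor, its relatives and its ligands. It listed 10 genes, and 9 of them had a row of the value table with their symbol alone, out of 22180 genes with such a row. The ligand gene Areg (amphiregulin) was not analysed here. Where a gene had more than 1 row, the brightest row on average was taken, a choice that affected Ereg only.

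EGF ligands are made as membrane-bound precursors and are released by ADAM proteases, which lets them reach receptors on neighbouring cells. Egfr binds them and signals as a dimer, often with Erbb2, which has no ligand of its own, while Erbb3 binds neuregulins and has little kinase activity. Receptor activity drives the ERK cascade, whose target genes include ligands of the family and Errfi1, which encodes a protein (also called Mig6) that binds the EGF receptor kinase domain and blocks it. In the vessel wall, EGF receptor signalling in smooth muscle is known for its part in growth and in the response to angiotensin and stretch.

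The samples were pools of aortic tissue from C57BL/6 mice at postnatal day 0. They covered 4 groups, wild-type (control) and fibulin-4 knockout, each as ascending aorta (aortic valve to ductus arteriosus) and descending aorta (vena cava to diaphragm). Fibulin-4 is a matrix protein needed to build elastic fibres. Each group had 2 pools of 8 pups, so a pool averages over animals, and n = 2 pools stands behind every group value below. The 8 arrays carried log2 expression values, and their small number limits the precision.

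The level of the fibulin-4 gene was not analysed here, and the genotypes below rest on the labels. All 8 smooth muscle markers checked, among them Acta2, Tagln and Myh11, lay well inside the range of transcribed genes. Their mean log2 value was 9.12 to 9.16 in wild-type ascending and 9.33 to 9.44 in knockout ascending aorta. In descending aorta it was 8.85 to 8.93 in wild-type and 9.21 on both knockout arrays. In the averaged effect 7 of 8 were higher in the knockout. Both wild-type replicate 2 arrays stood apart, with an interquartile range of 1.80 (ascending) and 1.74 (descending) over all genes against 2.14 to 2.28 on the other 6. Macrophage and other myeloid markers were at a mean of 6.34 to 6.44 in wild-type ascending, 7.34 to 7.55 in knockout ascending, 6.72 to 7.01 in wild-type descending and 7.31 to 7.62 in knockout descending aorta. Other tissues also differed between groups. Brown fat markers had a mean of 6.56 to 7.27 in wild-type ascending against 6.01 to 6.13 in knockout ascending aorta, and 8.07 to 8.82 against 6.76 to 6.87 in descending aorta, with 0 of 6 markers higher in the knockout. Skeletal muscle markers were at 7.61 to 9.23 in wild-type ascending and 5.75 to 6.91 in knockout ascending aorta (0 of 6 higher). In descending aorta they went the other way, from 5.40 to 6.07 in wild-type to 6.02 to 6.30 in the knockout (5 of 6 higher). Cardiomyocyte markers were at 6.97 to 7.79 in wild-type descending and 8.49 to 8.57 in knockout descending aorta (5 of 6 higher). In ascending aorta they were at 7.10 to 7.34 in wild-type and 7.25 to 7.60 in the knockout (4 of 6 higher). The part of smooth muscle and of these tissues in the results below was not tested. The arrays hold whole tissue, so fewer cells of a type and less RNA per cell cannot be told apart. As a yardstick for genes not transcribed in aorta, 1105 olfactory receptor genes were used. The 95th percentile of their mean log2 values was 5.11. Errfi1, Egfr, Erbb2, Hbegf, Ereg and Btc had means above it, and Erbb3, Tgfa and Egf had means below it, so differences in those last genes may lie near the background of the arrays.

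Errfi1 stood higher in the knockout in both segments. Its log2 value was 6.67 and 7.01 in wild-type ascending, 8.39 and 8.58 in knockout ascending, 6.85 and 7.22 in wild-type descending, and 8.38 and 8.47 in knockout descending aorta. All 4 knockout arrays lay above all 4 wild-type arrays, and the knockout pools of the ascending and descending aorta overlapped. The group means were 6.84 ± 0.24 (SD, n = 2) against 8.48 ± 0.14 in ascending aorta, a log2 difference of 1.65 (SE 0.26) or 3.13-fold. In descending aorta they were 7.04 ± 0.26 against 8.42 ± 0.07, a difference of 1.39 (SE 0.26) or 2.61-fold. Averaged over segments the difference was 1.52 (SE 0.19), or 2.86-fold. These values led to the choice of the gene and are given as a description.

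The knockout difference of Errfi1 was 0.26 larger in ascending than in descending aorta, with a 95% interval from -0.57 to 1.09, and this contrast was not used in choosing the gene (limma adjusted p = 1.000 over all genes). Its level in wild-type aorta was 0.20 lower in the ascending than in the descending segment (95% interval -0.79 to 0.39, limma adjusted p = 0.934). In the knockout it was 0.06 higher (-0.53 to 0.65, limma adjusted p = 1.000). Without wild-type descending replicate 2 the difference between the knockout effects was 0.08 and the wild-type segment difference -0.02, and without replicate 1 they were 0.45 and -0.38. The 4 group means order as wild-type ascending, wild-type descending, knockout descending and knockout ascending. Within each genotype the segments did not differ beyond their spread. These intervals do not show that the segments are alike.

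The RefSeq table of promoters (GRCm38.p6) held 9 windows for 7 of the genes, 2 of them for Errfi1. Hbegf, Ereg and Erbb3 had no window there, so they were not searched. The 250 bases before one of the annotated starts of Errfi1, on chr4:150854820-150855069 (plus strand), are shown because this gene leads the set. A cyclic AMP response element and a TATA box, found by a search of both strands, are in capitals.
Errfi1 promoter: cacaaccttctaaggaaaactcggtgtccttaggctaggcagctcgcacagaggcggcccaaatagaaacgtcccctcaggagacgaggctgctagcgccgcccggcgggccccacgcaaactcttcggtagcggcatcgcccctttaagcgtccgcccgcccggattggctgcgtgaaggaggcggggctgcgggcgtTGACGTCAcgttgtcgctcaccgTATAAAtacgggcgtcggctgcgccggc
Counted from the start, the element TGACGTCA begins at position -51 and the letters TATAAA at -28, and they do not overlap. Among 32851 windows of the same length, 1.55% held TGACGTCA and 12.4% held TATAAA on either strand. The window of the other Errfi1 start held neither. Areg was the other gene of the set with a window that held each of them. Searches for the AP-1 element TGACTCA, the EGR element GCGTGGGCG and the CArG box, bound by AP-1, EGR and SRF factors, found no match in either Errfi1 window, where 4.46%, 0.536% and 1.47% of all windows held them. The glucocorticoid response element (AGAACA, any 3 bases, then TGTTCT) had no match there either, and was held by 0.00913% of all windows. A match is a run of letters, not a measured binding site.

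**Figure D1:**
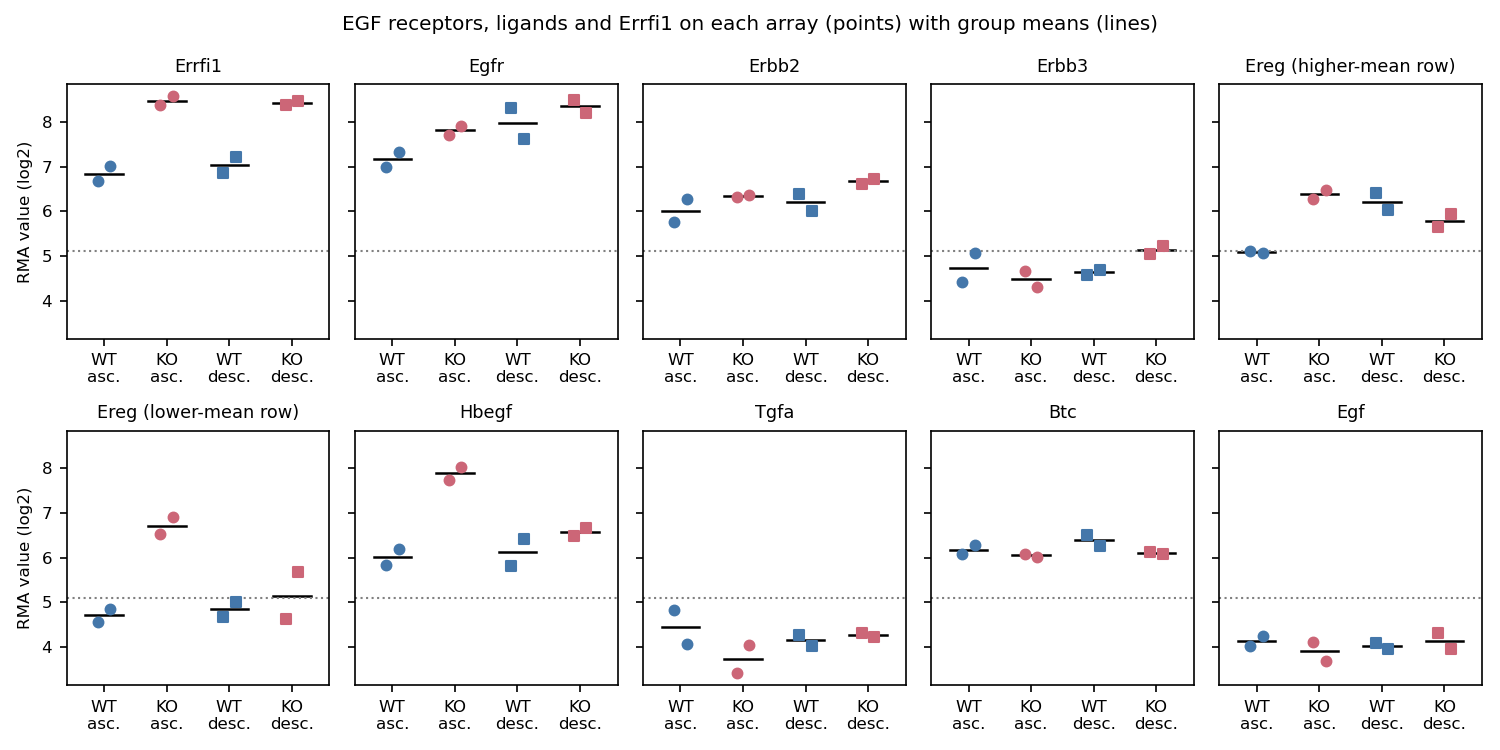
Log2 expression values (vertical axis) of the 9 genes, with Ereg shown for both of its rows, in wild-type (WT, blue) and knockout (KO, red) ascending (circles) and descending (squares) aorta. Points are the 2 pools of a group, lines are group means, and the dotted line at 5.11 is the 95th percentile of olfactory receptor genes; levels of different genes cannot be compared. Errfi1 is higher in the knockout in both segments, whereas the high knockout values of Hbegf (7.75 and 8.03) are those of the ascending aorta.

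Egfr, a receptor for every ligand of the set, was at 6.99 and 7.33 in wild-type ascending, 7.71 and 7.92 in knockout ascending, 8.32 and 7.62 in wild-type descending, and 8.49 and 8.20 in knockout descending aorta. Knockout and wild-type arrays separated in the ascending segment and overlapped in the descending one. The averaged difference was 0.52 (SE 0.21, limma adjusted p = 0.408), with 0.66 (SE 0.30) in ascending and 0.38 (SE 0.30) in descending aorta. Without wild-type descending replicate 2 the descending difference was 0.03, and without replicate 1 it was 0.73; the averaged one was then 0.34 and 0.69. Egfr was lower in ascending than in descending aorta in both genotypes, without overlap, by 0.81 on the log2 scale in wild-type (95% interval of the difference -1.49 to -0.13) and 0.53 in the knockout (-1.21 to 0.15); neither passed (limma adjusted p = 0.756 and 1.000). Without wild-type descending replicate 1 the wild-type segment difference was -0.46, and without replicate 2 it was -1.16.

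Erbb2, the partner receptor, was at 5.76 and 6.27 in wild-type ascending, 6.32 and 6.37 in knockout ascending, 6.38 and 6.01 in wild-type descending, and 6.62 and 6.73 in knockout descending aorta. Knockout arrays lay above wild-type arrays in each segment, although 6.32 and 6.27 were close in the ascending segment. The averaged difference was 0.41 (SE 0.19, limma adjusted p = 0.465), or 1.32-fold. The ascending difference of 0.33 (SE 0.27) stood at 0.08 when wild-type ascending replicate 1 was left out, and was 0.59 when replicate 2 was.

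Erbb3, the neuregulin receptor known from Schwann cells and their neural crest precursors, was at 4.42 and 5.07 in wild-type ascending, 4.66 and 4.31 in knockout ascending, 4.58 and 4.69 in wild-type descending, and 5.05 and 5.23 in knockout descending aorta. The knockout descending arrays were the higher ones, by 0.51 (SE 0.29, limma adjusted p = 0.870) against wild-type descending, while the ascending arrays of both genotypes overlapped. Of 5 Schwann cell and glial markers measured, 2 had means above the olfactory receptor yardstick. The mean of these markers was 5.13 to 5.39 in knockout descending and 5.24 to 5.33 in wild-type descending aorta. Sox10, the defining factor of that lineage, lay between 4.35 and 4.76 on all arrays, below the yardstick of 5.11. The 2 markers above it were S100b and Foxd3. In descending aorta S100b was at 7.87 and 7.41 in wild-type and 7.66 and 6.28 in the knockout. Foxd3 was at 5.76 and 5.78 against 6.32 and 5.83. The part of these cells in the Erbb3 values was not tested.

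Among the ligands, Hbegf (heparin-binding EGF-like growth factor, made by smooth muscle and macrophages) had an averaged difference of 1.17, against 0.44 for Ereg in the row used and 1.16 in its other row. Its log2 value was 5.84 and 6.19 in wild-type ascending, 7.75 and 8.03 in knockout ascending, 5.82 and 6.41 in wild-type descending, and 6.49 and 6.66 in knockout descending aorta. The knockout ascending pools stood above all other arrays, and the knockout descending pools lay just above the wild-type ones. The difference was 1.88 (SE 0.29), or 3.68-fold, in ascending aorta and 0.46 (SE 0.29), or 1.38-fold, in descending aorta, and neither passed (limma adjusted p = 0.117 and 0.884). The averaged difference of 1.17 (SE 0.20, limma adjusted p = 0.0989) was not called either. The descending difference was 0.17 without wild-type descending replicate 1 and 0.76 without replicate 2.

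The knockout difference of Hbegf was 1.42 larger in ascending than in descending aorta (95% interval 0.50 to 2.33, unadjusted p = 0.00638 by limma). After adjustment over all genes it did not pass (limma adjusted p = 1.000). In wild-type aorta the segments differed by -0.10 (95% interval -0.75 to 0.54). In the knockout the ascending segment was 1.32 higher (95% interval 0.67 to 1.96, limma adjusted p = 0.550), without overlap. Hbegf is also made by macrophages, and the myeloid markers given above were higher in the knockout in 8 of 8 cases in each segment, with a median difference of 1.19 in ascending and 0.58 in descending aorta; their part in the Hbegf and Ereg values was not tested. Endothelial markers, from another cell type that makes Hbegf, lay lower in the knockout in ascending aorta (0 of 8 above 0, median -0.81). In descending aorta 3 of 8 lay above 0, with a median of -0.11. The part of endothelial cells was not tested either.

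Ereg encodes epiregulin, a ligand of Egfr and Erbb4. Its 2 rows differed. In the row with the higher mean, the log2 value was 5.10 and 5.07 in wild-type ascending, 6.27 and 6.48 in knockout ascending, 6.41 and 6.02 in wild-type descending, and 5.64 and 5.94 in knockout descending aorta. The knockout was thus above wild-type in ascending aorta, by 1.29 (SE 0.26, limma adjusted p = 0.242), and below it in descending aorta, with a difference of -0.42 (SE 0.26, limma adjusted p = 0.884). The descending difference was -0.23 without wild-type descending replicate 1, -0.61 without replicate 2, and -0.06 with the mean of both rows.

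In the other row of Ereg the values were 4.57 and 4.85, 6.53 and 6.91, 4.68 and 5.02, and 4.62 and 5.68, in the same order of groups. This row also had its highest values in the knockout ascending pools, with a difference of 2.01 (SE 0.36, limma adjusted p = 0.177), or 4.03-fold, but its descending arrays overlapped (0.30, SE 0.36). The sign of the descending difference therefore depends on the row. The rows also disagreed on wild-type aorta, where ascending minus descending was -1.13 (SE 0.26) in the row with the higher mean and -0.14 (SE 0.36) in the other.

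Both rows of Ereg gave the same difference between segments: the knockout effect was larger in ascending aorta by 1.71 (SE 0.37) in the row with the higher mean and by 1.71 (SE 0.51) in the other. The unadjusted limma p was 0.00105 and 0.00784, and the adjusted p was 1.000 for each. By its p, the row with the higher mean ranked 17 among the 22180 genes in this contrast. The rows reached 1.71 by different parts. In the row with the higher mean, ascending minus descending was -1.13 in wild-type and 0.59 in the knockout. In the other row it was -0.14 in wild-type and 1.57 in the knockout.

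Btc (betacellulin) was at 6.08 and 6.28 in wild-type ascending, 6.09 and 6.02 in knockout ascending, 6.51 and 6.27 in wild-type descending, and 6.13 and 6.09 in knockout descending aorta. The ascending groups overlapped and the knockout descending arrays lay below the wild-type ones. The averaged difference was -0.20 (95% interval -0.58 to 0.19, limma adjusted p = 0.676). Epgn, Ereg, Areg and Btc lie next to each other in that order among the protein-coding genes of the RefSeq annotation, between Mthfd2l and Parm1. The ascending differences of the measured neighbours were 0.73 for Mthfd2l, -0.18 for Epgn, 1.29 for Ereg, -0.12 for Btc and 0.94 for Parm1.

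The ligand genes Tgfa (transforming growth factor alpha) and Egf were dim. Tgfa ranged from 3.41 to 4.83 and Egf from 3.70 to 4.31 over the arrays, below the olfactory receptor yardstick of 5.11. Tgfa was lower in knockout than in wild-type ascending arrays, with 4.05 and 4.06 for the closest pools and a difference of -0.71 (SE 0.33, limma adjusted p = 0.575). Without wild-type ascending replicate 1 that difference was -0.32, and without replicate 2 it was -1.10. Egf overlapped in every comparison, and its averaged difference was -0.06 (SE 0.19).

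**Figure D2:**
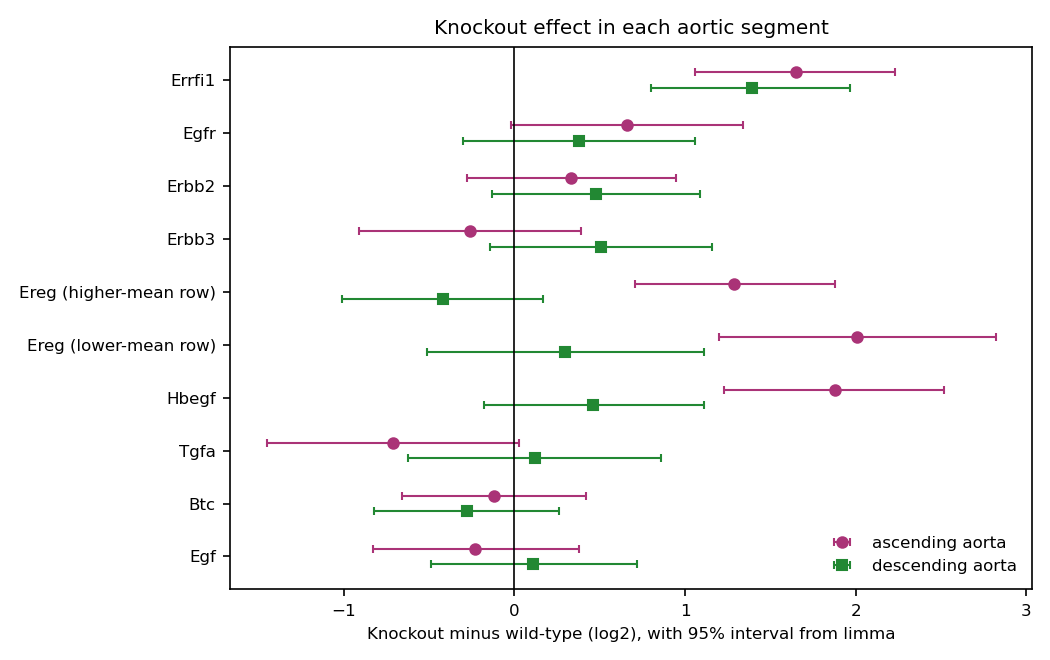
Knockout minus wild-type log2 difference (horizontal axis) of each gene in ascending (purple circles) and descending (green squares) aorta, with 95% intervals from the limma fit to 8 arrays. Errfi1 lies to the right of 0 in both segments (1.65 and 1.39), while Hbegf (1.88 and 0.46) and both rows of Ereg have their larger difference in ascending aorta.

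Counted over the set, 1 of 9 genes (Errfi1, whose value led to the choice) was called higher in the averaged knockout effect by limma, against 0.0721% of all genes called in either direction and 0.0676% called higher. At an unadjusted p under 0.05 there were 4 genes (Errfi1, Hbegf, Ereg and Egfr), all higher in the knockout, against 11.4% of all genes in either direction and 7.57% higher. Without wild-type descending replicate 1 or 2, or without any one of the knockout arrays, that call ended, while the difference stayed between 1.42 and 1.61. In the ascending effect limma called 0 of 9 genes, against 0% of all genes, and 3 of 9 had an unadjusted p under 0.05, all higher, against 8.90% of all genes and 5.31% higher. In the descending effect it called 0 of 9, against 0.00451%, and 1 (Errfi1) was higher at an unadjusted p under 0.05, against 5.95% in either direction and 3.63% higher. Errfi1 is in each unadjusted count of the averaged, ascending and descending effects. Its value led to the choice of the set, so these counts are a description. For the difference between segments the count was 0 of 9, against 0%, with 2 of 9 (Ereg and Hbegf, both larger in ascending aorta) at an unadjusted p under 0.05, against 3.30% in either direction and 1.62% in this one. The segment difference was called for 0 of 9 in wild-type, against 0.00902%, and for 0 of 9 in the knockout, against 0%. The unadjusted p was under 0.05 for 2 genes in wild-type (Egfr and Ereg, 0 of them higher in ascending aorta, against 3.21% higher), against 6.19%. In the knockout there were 3, against 4.04%, of which Hbegf and Ereg were higher in ascending aorta, against 2.00% higher, and Erbb3 was lower.

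Knockout arrays lay above wild-type arrays without overlap in both segments for 3 genes of the set, Errfi1, Erbb2 and Hbegf, against 7.81% of all genes. In ascending aorta alone this held for 5 of 9 genes, against 21.5%, and in descending aorta for 4, against 21.6%. Errfi1, whose value led to the choice, is in each of these counts, so they are a description. Knockout arrays lay below in ascending aorta for 1 gene, against 18.3%, and in descending aorta for 2, against 15.8%. Below in ascending and above in descending aorta were the arrays of 0 genes of the set, against 2.27%. In the knockout, ascending arrays lay below descending ones for 4 genes (Egfr, Erbb2, Erbb3 and Tgfa), against 20.8%, and above them for 2 (Hbegf and Ereg), against 18.3%. In wild-type aorta they lay below for Egfr and Ereg, against 14.1%, and above for 0 genes, against 15.9%.

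The rest of the pathway was described by gene lists without a test of the lists. The lists were chosen with earlier results of these data known, so their counts are a description. The median difference over all genes was -0.01 in ascending and 0.03 in descending aorta. Of all genes, 49.8% lay above 0 in the averaged effect (49.3% in ascending and 53.7% in descending aorta), 7.57% were higher at an unadjusted p under 0.05 and 0.0676% were called higher, which is the background for each count below. Of the other ErbB family genes (Erbb4, Epgn and the neuregulins), 3 of 6 lay above 0 in the averaged effect, with a median of 0.01 and 0 called by limma, and 0 had an unadjusted p under 0.05. Erbb4, a neuregulin receptor, stood at 0.44 (SE 0.20), Nrg4 at -0.34 and Epgn at -0.24. The neuregulin receptor Erbb4 was at 6.14 and 5.67 in wild-type ascending and 6.57 and 6.55 in knockout ascending aorta. In descending aorta its arrays overlapped, at 6.11 and 5.58 in wild-type and 6.01 and 6.15 in the knockout.

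Genes of ligand shedding, which release the ligands from the membrane, all lay above 0: 8 of 8 had a positive averaged difference, with a median of 0.40, beside 49.8% of all genes above 0. Limma called 0 of them, and 3 were higher at an unadjusted p under 0.05, beside 7.57% of all genes. The median was 0.26 without both wild-type replicate 2 arrays, with 8 of 8 still above 0. The metalloproteases Adam9 (0.84, SE 0.21), Adam19 (0.81, SE 0.25) and Adam10 (0.61, SE 0.24) had the smallest p. Adam17, the main sheddase of Hbegf and Ereg, stood at 0.36 (SE 0.19), and was named after its value was seen.

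Negative regulators of ErbB and ERK signalling had a median averaged difference of 0.31, with 16 of 20 above 0, 0 called by limma and 6 higher at an unadjusted p under 0.05. The median was 0.20 (15 of 20 above 0) after quantile normalization and 0.18 (14 of 20) without both wild-type replicate 2 arrays. The ubiquitin ligase genes Cbl (0.70, SE 0.17) and Cblb (0.78, SE 0.21), whose products send the activated receptor for degradation, and the ERK inhibitor Spry4 (0.65, SE 0.19) had the smallest p. Dusp6, a phosphatase of ERK and itself an ERK target, stood at -0.16 (SE 0.22) and was named after its value was seen. Errfi1, at 1.52, was above the highest of these regulators, Cblb. The value of Errfi1 led to the choice of the set, so this order is a description.

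Signal transducers between receptor and ERK had a median of 0.28, with 15 of 16 measured genes above 0 and 0 called by limma; 4 were higher at an unadjusted p under 0.05. The count depended on the normalization and on 1 array: quantile normalization gave a median of 0.09 with 10 of 16 above 0, and leaving out wild-type descending replicate 2 gave 0.17 with 10 of 16. Without that array the descending median was -0.07 (7 of 16 above 0), against 0.34 with it. Map2k1, the kinase that activates ERK, stood at 0.66 (SE 0.23), the docking protein gene Gab1 at 0.46 (SE 0.17) and Stat3, a transcription factor downstream of several receptors, at 0.63 (SE 0.24).

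ERK-induced genes lay further from 0. Their median was 0.63 averaged over segments, 0.79 in ascending and 0.31 in descending aorta, with 17 of 19 above 0 in the averaged effect, 0 called by limma and 11 higher at an unadjusted p under 0.05, beside 49.8% above 0 and 7.57% higher among all genes. Plaur, the urokinase receptor gene, was at 6.08 and 6.09 in wild-type ascending, 7.47 and 7.79 in knockout ascending, 5.93 and 5.89 in wild-type descending, and 6.78 and 6.76 in knockout descending aorta. As for Hbegf, its ascending knockout pools were the highest arrays; the averaged difference was 1.21 (SE 0.17, limma adjusted p = 0.0540). The myeloid markers, which include no gene of this list, moved the same way (median 0.86 averaged over segments), and their part was not tested. Ier3 stood at 1.43 (SE 0.29) and the AP-1 subunit gene Fosl2 at 0.77 (SE 0.18). The descending median of this list was 0.05 without wild-type descending replicate 2, and 0.64 without replicate 1. The averaged median was 0.42 without the first of these arrays and 0.32 without both wild-type replicate 2 arrays.

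Glucocorticoid-induced genes were listed because Errfi1 is also known as a target of the glucocorticoid receptor. The part of glucocorticoids in the Errfi1 values was not tested. All 13 genes lay above 0 in each segment, with a median of 0.83 averaged over segments, 0.76 in ascending and 0.86 in descending aorta. After quantile normalization 12 of 13 lay above 0 in ascending aorta, with a median of 0.53. Without both wild-type replicate 2 arrays 12 of 13 lay above 0 in each segment. Mt2, a metallothionein, rose by 1.64 (SE 0.19, limma adjusted p = 0.0202), and was the 1 gene of the list that was called; 10 had an unadjusted p under 0.05. The clock gene Per1 stood at 0.89 (SE 0.18) and Fkbp5, a cochaperone of the glucocorticoid receptor, at 0.84 (SE 0.18), with 0.40 (SE 0.25) in ascending and 1.27 (SE 0.25) in descending aorta. Tsc22d3, another classical target, had the smallest difference of the list, 0.22.

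**Figure D3:**
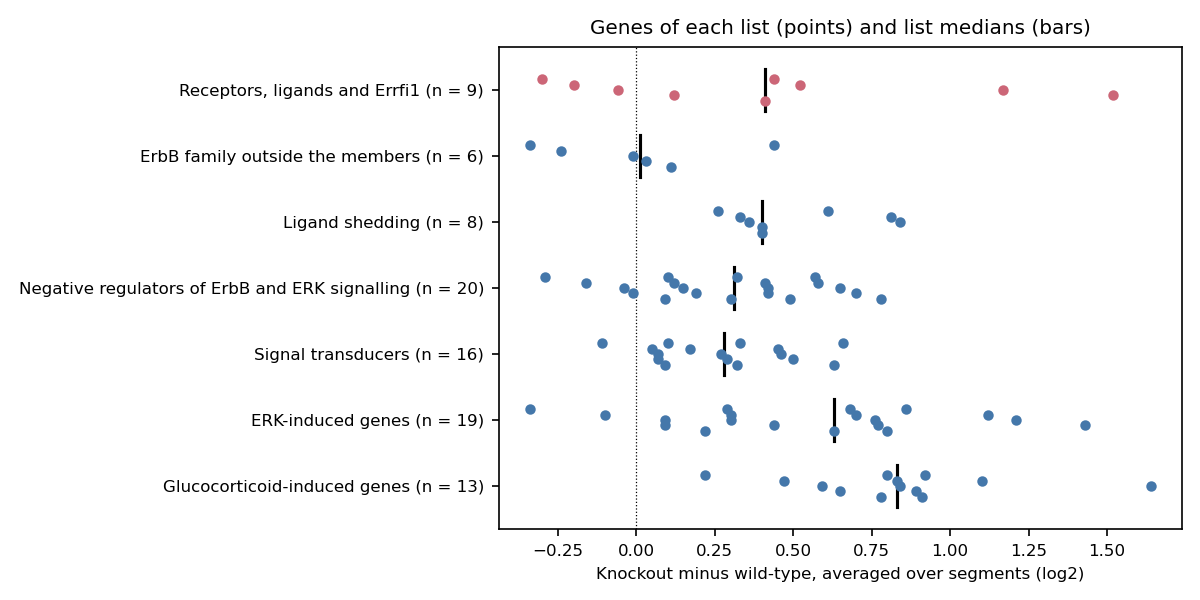
Knockout minus wild-type log2 difference averaged over segments (horizontal axis) for the 9 genes of the set (red) and for the genes of each pathway list (blue), with n as the number of genes measured. Bars are list medians, from 0.01 for the other ErbB family genes to 0.83 for glucocorticoid-induced genes; Errfi1 is the red point at 1.52 and Hbegf that at 1.17.

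The genes whose values followed Errfi1 most closely were picked by Pearson's r over the 8 arrays, among 10281 genes with a mean log2 value above that of the median gene, after predicted genes, small RNAs and olfactory or vomeronasal receptors had been left out. They were M6pr (r = 0.990), a receptor that carries lysosomal enzymes, Mt2 (0.990), Fkbp11 (0.983), a folding enzyme of the endoplasmic reticulum, Dhx29 (0.977), a helicase of translation initiation, and Fat1 (0.973), a large cadherin. These r values are a description: with the arrays split by genotype, any gene with a large and even knockout difference scores high. The averaged difference of these genes was 0.91 for M6pr, 1.64 for Mt2, 1.02 for Fkbp11, 0.86 for Dhx29 and 1.06 for Fat1. Each was higher on all knockout than on all wild-type arrays, with differences of 0.95 and 0.88 for M6pr and 1.05 and 1.07 for Fat1 in ascending and descending aorta. Within the set, r with Errfi1 ran from -0.63 for Btc to 0.81 for Hbegf.

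**Figure D4:**
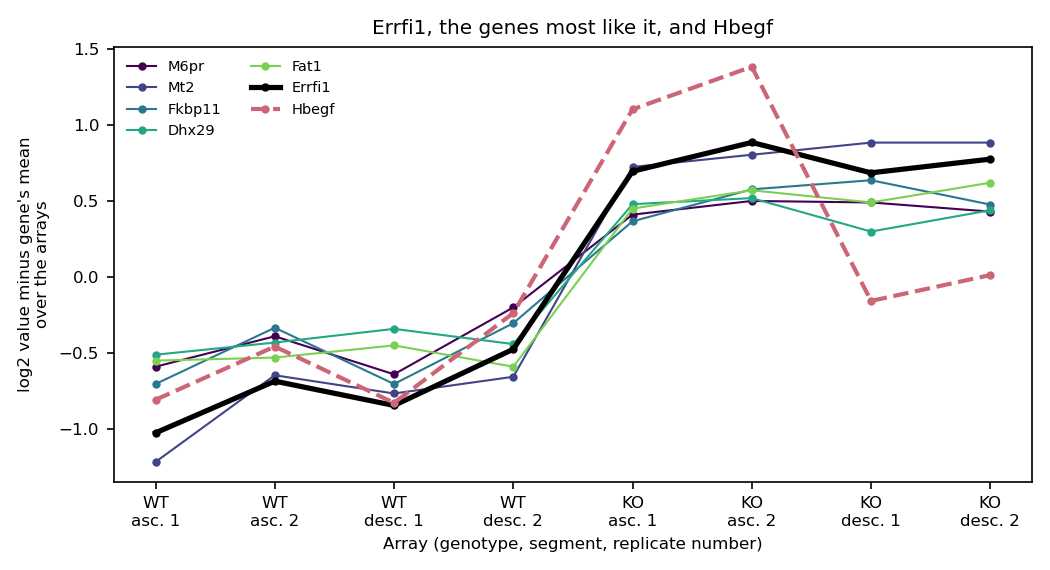
Log2 value minus each gene's own mean over the arrays (vertical axis) on the 8 arrays, for Errfi1 (thick black line), the genes with the highest Pearson's r with it (thin lines) and Hbegf (dashed line). Lines join the values of 1 gene and the order of arrays has no meaning; Hbegf departs from Errfi1 on the knockout descending arrays, where its values were 6.49 and 6.66.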

How the data were processed

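Total RNA of 8 aortic pools (5 ng, amplified and biotin-labelled, per the labels' protocols) was hybridised to arrays. The authors deposited 1 log2 value per probe set and array, made with RMA in Affymetrix Expression Console, per the submitters' processing notes. Tool versions and the build behind the probe sets were not given in the sources used here. This method corrects background, normalises arrays to each other and compresses the differences of dim genes.

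Of 41345 rows, 23521 had a single gene symbol in the platform annotation, which left 22180 genes at the row with the highest mean. limma 3.58.1 (R 4.3.3) fitted a mean per group over all 8 arrays (4 residual and 5.52 prior degrees of freedom). Genes with a Benjamini-Hochberg adjusted p under 0.05 over all genes were called. Folds are powers of the log2 differences. Arrays of 1 group are biological replicates, per the labels. No column was left unmapped.

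Members, gene lists and tests were chosen with earlier results of these data known. The text names all members, the called genes of each pathway list filled to 3 by the smallest p, and the 5 genes most like Errfi1. The alternatives were other normalizations, row choices, filters and moderation settings, a replicate block and leaving out each array; the closing section gives their effect on the members, and the report gives it for the lists where it was large. Figures were drawn with matplotlib 3.10.9.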

Additional observations from a re-analysis of the deposited data

Results flagged for a closer look

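Ereg stood out because all knockout arrays lay above wild-type in ascending aorta and below it in descending aorta, in the row with the higher mean. This pattern was found in 1 of the 9 genes and in 1.38% of all genes. The knockout effect differed between the segments by 1.71 on the log2 scale (95% interval 0.89 to 2.54, limma adjusted p = 1.000 over all genes, unadjusted p = 0.00105). In the other row of the gene the descending arrays overlapped and the difference between segments was also 1.71 (95% interval 0.57 to 2.85). It was made up of different parts there, as given above.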

How the results depend on the processing

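The count of 1 called gene in the averaged knockout effect became 0 after quantile normalization and when every row of the table was tested, and 2 at an adjusted p under 0.1, with Hbegf added. It lay between 0 and 1 when arrays were left out in turn. For Errfi1, quantile normalization gave a difference of 1.28 (limma adjusted p = 0.178), and the test of every row gave 0.265 as the adjusted p. Leaving out an array gave an adjusted p of 0.0316 to 0.226. With the replicate number as a block, a number that the labels do not tie to litters or days, the count stayed at 1 and no call of the set changed. The counts of 0 in the other comparisons stayed at 0 in every alternative run, except that those for the averaged and the between-segment effects have no fit restricted to the groups compared, since they use all groups. Where an array was left out, its group had 1 array left and was assumed to vary like the others.

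Differences near 0 turned sign in some fits. Over the fits that left out an array, these ran from -0.16 to 0.05 for the averaged and -0.06 to 0.29 for the descending effect of Egf. They ran from -0.07 to 0.63 for the between-segment effect of Egfr, and from -0.40 to 0.11 for that of Erbb2. For the wild-type segment difference they ran from -0.44 to 0.07 for Erbb2, -0.21 to 0.44 for Erbb3, -0.40 to 0.19 for Hbegf and -0.09 to 0.68 for Tgfa. For Erbb3 they ran from -0.04 to 0.29 in the averaged and -0.58 to 0.07 in the ascending effect, for Tgfa from -0.00012 to 0.23 in the descending effect, and for Errfi1 from -0.04 to 0.16 for the segments of the knockout. Without both wild-type replicate 2 arrays, a fit chosen after seeing the data, the wild-type segment difference was -0.07 for Egf, -0.16 for Erbb3 and 0.02 for Hbegf, the between-segment effect of Erbb2 was 0.30, the ascending effect of Erbb3 0.07 and the descending effect of Tgfa -0.00013. Quantile normalization gave 0.06 for the averaged effect of Egf. The other row of Ereg, also chosen after seeing the data, gave 0.30 for the descending effect. The causes of these changes were not tested.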

Other observations

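Nrg1, a neuregulin that binds Erbb3 and Erbb4, was picked out after its values were seen. It was at 4.30 and 4.15 in wild-type ascending, 4.87 and 4.92 in knockout ascending, 4.94 and 4.99 in wild-type descending, and 4.48 and 4.22 in knockout descending aorta. As in the Ereg row with the higher mean, the knockout arrays lay above wild-type in the ascending and below it in the descending segment. The knockout effect differed between segments by 1.28 (SE 0.34, limma adjusted p = 1.000), at values below the olfactory receptor yardstick of 5.11.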
